A study of Mus musculus with 3 samples.

Results

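Cortical layer identity factors are DNA-binding and co-repressor proteins that mark, and during development help to set, the layer and projection type of excitatory neurons in the cerebral cortex. The 9 genes described here were given by name, as *Cux1*, *Cux2*, *Rorb*, *Fezf2*, *Bcl11b*, *Tbr1*, *Foxp2*, *Tle4* and *Neurod6*, from the 32285 genes measured in nuclei of the mouse prefrontal cortex (PFC). They were read in kept nuclei (at least 200 genes detected and under 10% mitochondrial counts) that had at least 1 count of *Slc17a7*, the vesicular glutamate transporter of cortical excitatory neurons, and 0 counts of *Gad1* and *Gad2*, the enzymes that make GABA. These were 22670 of 43463 kept nuclei, with 7564 of 14630 in the C57BL/6J library, 7582 of 14056 in the *Nav1* KO library and 7524 of 14777 in the BTBR library, and they are called glutamatergic nuclei below. A count is a UMI, the tag of 1 captured RNA molecule.

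Each of the 3 groups was 1 library of nuclei from the PFC of male mice of 6 to 8 weeks, sorted with an antibody to the neuronal protein NeuN and a DNA dye. For C57BL/6J and *Nav1* KO the paper states that NeuN-positive and NeuN-negative nuclei were both collected, to cover unlike cell types. The C57BL/6J library (wild-type, strain C57BL/6 in the labels) pooled 5 mice. The *Nav1* KO library pooled 4 mice of the same background that carry a CRISPR deletion at the end of exon 1 of *Nav1*, which encodes neuron navigator 1, a microtubule-associated protein. The BTBR library came from the inbred strain BTBR T+ Itpr3tf/J, and neither a genotype nor the number of mice is given for it. All mice of a pool shared 1 library, so no test between groups was possible, no p-value is given, and strain or genotype cannot be told apart from the pool, the dissection or the library. Intervals in brackets are exact, at 95%, and take in the error of counting alone.

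The matrices held 15402, 14623 and 15238 barcodes with 39757390, 52124992 and 49842899 counts, in the order C57BL/6J, *Nav1* KO and BTBR, which is the order of every triplet of values below. Glutamatergic nuclei had medians of 2528, 3260 and 2869 counts, and 61 to 71 barcodes were shared by each pair of libraries. *Nav1* was at 344, 270 and 146 CPM in these nuclei (counts of the gene per 1000000 counts of the nuclei), and counts from the 3′ end of a transcript do not check a deletion in exon 1. Markers of other cells did not have the same levels in the glutamatergic nuclei of the 3 libraries. Nuclei with counts of at least 2 of 8 genes that mark mitral or tufted cells of the olfactory bulb made up 0.542%, 4.77% and 4.52% of the glutamatergic nuclei, the 5 astrocyte markers summed to 53.5, 110 and 103 CPM in them, and 21.8%, 18.7% and 18.1% held counts of at least 2 of 8 markers of striatal medium spiny neurons. None of these markers was at 0 in any library. These shares were not thinned. Nuclei with at least 2 striatal markers were deeper, with medians of 3325, 4480 and 3707 counts, than the others, with 2338, 3060 and 2730. Whether the markers come from other cells was not tested. The label gives neurons of the PFC, so values that move with these markers are given beside the results.

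Upper layers of the cortex hold neurons that project within the cortex, and layers 5 and 6 hold neurons that project to the brainstem, the spinal cord and the thalamus. *Fezf2* and *Bcl11b* are known for the subcerebral type of layer 5, *Tbr1*, *Foxp2* and *Tle4* for the corticothalamic type of layer 6, *Rorb* for layer 4 and *Cux1* and *Cux2* for layers 2 to 4, while *Neurod6* is found in excitatory neurons across layers. In development some of these factors repress the others, and their patterns persist in part in the adult cortex.

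In the mm10 genome (GENCODE M21) *Cux1* lies at chr5:136248135-136567490 and *Cux2* at chr5:121856366-122050102, both on the minus strand. *Rorb* lies at chr19:18930605-19111196 and *Tle4* at chr19:14448150-14598051, also on the minus strand. *Fezf2* lies at chr14:12342094-12348189, *Bcl11b* at chr12:107910403-108003602 and *Neurod6* at chr6:55677822-55681263, on the minus strand, while *Tbr1* at chr2:61802930-61814114 and *Foxp2* at chr6:14901349-15441977 are on the plus strand. The spans run from 3442 bases for *Neurod6* to 540629 bases for *Foxp2*.

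RefSeq (GRCm38.p6) gave 11 start sites for 8 of the 9 genes, with *Foxp2* not matched, and the 250 bases before each were searched on both strands for 5 short motifs bound by these families of proteins. These were the ROR half-site AGGTCA, found before 14% of 32851 start sites of all genes, the E-box CAGATG (14.4%), the T-box core GGTGTGA (3.33%), the Cut repeat core ATCGAT (0.728%) and the forkhead core TGTTTAC (3.17%). Only a *Cux1* and a *Cux2* start site had a match. At *Cux2*, which encodes a Cut homeodomain protein, a Cut repeat core began 72 bases and an E-box, in reverse complement, 79 bases before the start. At *Cux1*, also of the Cut family, a forkhead core began 158 bases before it. All 250 bases of this *Cux1* region, and 66 bases of the *Cux2* region with matches, lie in an annotated exon. Both regions lie inside the gene spans given above. These matches are descriptions of the letters, and the counts do not bear on binding. The 30 bases around each match (minus strand, *Cux1* at chr5:136566122-136566151 and *Cux2* at chr5:122047884-122047913) are shown with the motifs in capitals, since these are the only matches among the factors.
Cux1: ccccaccccgttTGTTTACgtcccggggcc
Cux2: aggggggctCATCTGaATCGATataaagag

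*Rorb* has a pair of start sites with unlike bases before them, with 66% G and C at chr19:19111197-19111446 and 39.2% at chr19:19001118-19001367 (minus strand, against a median of 52.4% over all genes). Both are shown because 3′ counts cannot tell transcripts from these starts apart, and every *Rorb* value below sums over them. No base is in capitals, since none of the 5 motifs was found.
Rorb, first start: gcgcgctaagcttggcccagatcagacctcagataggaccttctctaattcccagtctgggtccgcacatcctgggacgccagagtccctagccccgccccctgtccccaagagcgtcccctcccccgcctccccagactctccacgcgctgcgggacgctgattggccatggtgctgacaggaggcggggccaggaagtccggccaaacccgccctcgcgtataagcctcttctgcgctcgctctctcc
Rorb, second start: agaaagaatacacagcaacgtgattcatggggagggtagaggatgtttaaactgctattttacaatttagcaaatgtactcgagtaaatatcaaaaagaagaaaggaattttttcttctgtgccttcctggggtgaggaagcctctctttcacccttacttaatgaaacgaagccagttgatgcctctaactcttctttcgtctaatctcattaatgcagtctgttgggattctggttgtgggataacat

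The levels of all 9 factors lay within 1.5-fold of the C57BL/6J library in both others. *Cux1*, *Foxp2* and *Tle4* were lower and *Rorb* was higher in both, and *Bcl11b* and *Neurod6* went in opposite directions in *Nav1* KO and BTBR. Both comparisons use the same C57BL/6J library. Levels are the summed counts of a gene over all counts of the glutamatergic nuclei, as CPM. In such a sum, fewer nuclei that express a gene and less RNA per nucleus cannot be told apart.

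Of the upper layer factors, *Cux1* was at 98.6 CPM [94.5, 103], 76.6 [73.5, 79.9] and 81.8 [78.3, 85.4], and *Cux2* at 127 [122, 132], 121 [117, 125] and 113 [109, 117]. The intervals of *Cux1* in C57BL/6J lay above those in the other libraries, with ratios of 0.777 [0.732, 0.824] in *Nav1* KO and 0.829 [0.78, 0.881] in BTBR. For *Cux2* the ratios were 0.957 [0.91, 1.01] and 0.892 [0.846, 0.94], so that in *Nav1* KO the interval held 1. *Rorb*, a nuclear receptor of middle layers, was at 145 CPM [140, 150], 166 [161, 170] and 170 [165, 175], and was 1.14 [1.09, 1.19] and 1.17 [1.12, 1.23] times the C57BL/6J level. Glutamatergic nuclei of the mitral or tufted list had *Cux1* at 1.23, 1.9 and 1.49 times and *Cux2* at 1.5, 2.03 and 1.47 times the others. Without nuclei with a count of any astrocyte marker, *Rorb* was at 136, 150 and 157 CPM.

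*Fezf2*, a zinc finger protein of layer 5, was at 24.8 CPM [22.8, 27], 27 [25.2, 29] and 28.3 [26.3, 30.5], with ratios of 1.09 [0.975, 1.21] in *Nav1* KO and 1.14 [1.02, 1.28] in BTBR. *Bcl11b*, which encodes the zinc finger protein Ctip2, was at 79.7 CPM [76, 83.5], 68.5 [65.5, 71.5] and 95.8 [92, 99.7], and the 3 intervals did not overlap. It was 0.859 [0.806, 0.917] times the C57BL/6J level in *Nav1* KO and 1.2 [1.13, 1.28] times in BTBR. In glutamatergic nuclei with fewer than 2 striatal markers it was at 66.3, 59 and 88.4 CPM, in the same order of libraries.

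Of the layer 6 factors, the T-box protein gene *Tbr1* was at 38.6 CPM [36.1, 41.3], 34.2 [32.2, 36.4] and 39.3 [36.9, 41.9], with ratios of 0.886 [0.808, 0.971] and 1.02 [0.928, 1.12]. The forkhead gene *Foxp2* was at 46 CPM [43.3, 48.9], 34.5 [32.4, 36.7] and 38.8 [36.4, 41.3], and its ratios of 0.749 [0.687, 0.818] and 0.843 [0.771, 0.921] were both below 1. The co-repressor gene *Tle4* was at 162 CPM [157, 168], 136 [132, 141] and 143 [139, 148], with ratios of 0.84 [0.803, 0.879] and 0.882 [0.842, 0.924]. *Foxp2* and *Tle4* were thus highest in the C57BL/6J library, where the intervals lay above those of the other libraries. In nuclei with at least 2 striatal markers *Foxp2* was at 1.32, 1.37 and 1.47 times and *Tle4* at 1.27, 1.21 and 1.3 times the others. In those others *Foxp2* was at 42.1, 31.5 and 34.8 CPM and *Tle4* at 151, 129 and 133 CPM, still highest in C57BL/6J. *Neurod6*, a basic helix-loop-helix gene of excitatory neurons, was at 47.3 CPM [44.5, 50.3], 54.7 [52.1, 57.4] and 40.7 [38.2, 43.3], with non-overlapping intervals and ratios of 1.16, with a lower bound of 1.07, and 0.86 [0.788, 0.938].

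Among all 9591 genes at a mean of 10 CPM or more over the 3 libraries, 6.17% were past 1.5-fold between *Nav1* KO and C57BL/6J. Between BTBR and C57BL/6J it was 10.4%, against 0 of 9 factors in each comparison. The factors had median ratios of 0.886 and 0.892, and all genes 0.94 and 1.01. *Cux2* in *Nav1* KO turned to 1.02 when ratios were divided by the median of all genes. The other 17 ratios stayed on their side of 1 or, for *Tbr1* in BTBR, reached 1, over the same 11 alternatives.

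**Figure D1:**
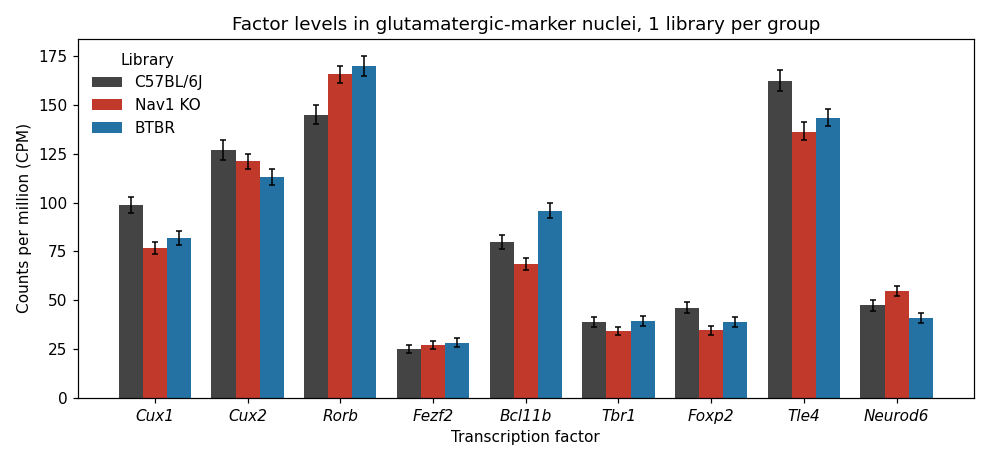
Level of each factor in glutamatergic nuclei (vertical axis, CPM) in the C57BL/6J, Nav1 KO and BTBR libraries, with exact 95% Poisson intervals as error bars. Cux1, Foxp2 and Tle4 were highest in C57BL/6J, and Bcl11b was lowest in Nav1 KO (68.5 CPM) and highest in BTBR (95.8 CPM).

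From a list of 31 other cortical transcription factors, 26 were at a mean of 10 CPM or more, and those under it were not counted. Of the 26, 1 was past 1.5-fold in each comparison, with medians of 0.903 in *Nav1* KO and 0.952 in BTBR. In *Nav1* KO this was *Nr4a2*, an orphan nuclear receptor known from deep layers and the claustrum, at 25.4, 8.81 and 18.1 CPM, or 0.347 [0.298, 0.402] times the C57BL/6J level. In BTBR it was *Rora*, a relative of *Rorb*, at 32.4, 35.4 and 49.6 CPM, or 1.53 [1.4, 1.68] times. Of the 19 marker genes of layers measured, 4 were past 1.5-fold in both comparisons, 2 of them higher and 2 lower. Of all genes, 6.17% were past it in *Nav1* KO and 10.4% in BTBR. The share of all genes past it in both was not counted, and both comparisons use the same C57BL/6J library. *Tshz2* and *Rapgef3* (2 of 3 near-projecting markers measured) were at 2.14 and 2.65 times the C57BL/6J level in *Nav1* KO and 2.03 and 3.53 times in BTBR, and the mitral or tufted markers given above were higher in the same libraries. *Calb1* of layer 2/3, the calbindin gene, and *Il1rapl2* of the middle layer were at 0.659 and 0.666 times in *Nav1* KO and 0.651 and 0.657 times in BTBR. Past the limit in 1 comparison were *Ccn2* of layer 6b (1.95 times) in *Nav1* KO and, in BTBR, *Wfs1* of layer 2/3 (1.69 times), *Npr3* of layer 5 (0.632 times) and the layer 6 corticothalamic markers *Hs3st4* (0.661 times) and *Col12a1* (0.545 times).

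Because deeper nuclei show more genes, each nucleus was thinned at random to 1000 counts before detection was compared, which left 6984, 7320 and 6944 nuclei and left out 580, 262 and 580 with fewer. At this depth *Tle4* was found in 13.9%, 11.7% and 12.3% of the nuclei, *Rorb* in 11.6%, 12.6% and 13.4%, and *Cux2* in 11.4%, 10.5% and 10.9%. The shares were 8.86%, 6.79% and 7.81% for *Cux1*, 7.13%, 5.85% and 9.07% for *Bcl11b* and 4.2%, 4.88% and 3.6% for *Neurod6*. They were 4.11%, 3.46% and 3.6% for *Foxp2*, 3.92%, 3.18% and 3.72% for *Tbr1*, and 2.48%, 2.72% and 2.61% for *Fezf2*. Unthinned, the shares ran from 6.24% for *Fezf2* in C57BL/6J to 28.5% for *Tle4* in *Nav1* KO.

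Shares of this size were also found where the factors should be low. Nuclei with counts of at least 2 of 5 oligodendrocyte markers and with 0 counts of *Slc17a7*, *Gad1* and *Gad2* numbered 367, 207 and 230 and had medians of 1083, 1507 and 1311 counts. Of these, 202, 159 and 145 reached 1000 counts. At that depth *Foxp2* was found in 7.92%, 3.77% and 4.83% of them, which is above the glutamatergic share in all 3 libraries with overlapping intervals. With at least 3 of the markers it was found in 4.39%, 2.88% and 7.92%, above that share in C57BL/6J and BTBR only. Its overall share is thus not told apart from that of these nuclei, and it is not read as a trait of glutamatergic nuclei. With at least 2 markers and by value, *Cux1* had the higher share in glutamatergic nuclei in 1 library, *Fezf2*, *Bcl11b* and *Tle4* in 2, and *Cux2*, *Rorb*, *Tbr1* and *Neurod6* in 3. The intervals overlapped for every factor and library except *Cux2* in *Nav1* KO. On 145 to 202 oligodendrocyte-like nuclei, overlap does not show that shares are equal, and the other shares were not told apart here. By CPM, *Tbr1* was at 12.8, 17.2 and 21.7 and *Neurod6* at 23.8, 12.3 and 13.6 in the oligodendrocyte-like nuclei. Both were higher in glutamatergic nuclei in all 3 libraries, as were *Cux2*, *Rorb* and *Fezf2*. This held for *Bcl11b* in 2, for *Cux1* and *Tle4* in 1 and for *Foxp2* in 0. For *Cux2* the oligodendrocyte-like shares were 9.41%, 3.77% and 6.21%. These nuclei also carried neuronal RNA, with the synaptic gene *Snap25* at 468, 357 and 310 CPM against 869, 779 and 791 CPM in the glutamatergic nuclei, and the part of free RNA or mixed droplets in these shares was not tested. What follows therefore rests on how the factors are distributed among the glutamatergic nuclei of a library, and not on their overall shares.

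The factors were sparse. At 1000 counts 49%, 52.4% and 49.2% of the nuclei had none of the 9, 37.1%, 35.6% and 37.3% had 1, and 11.6%, 10.2% and 11% had 2. A factor of the deep layers (*Fezf2*, *Bcl11b*, *Tbr1*, *Foxp2* or *Tle4*) was found in 17%, 14.8% and 18.5% of the nuclei with *Cux2*, and in 27.4%, 23.8% and 27.1% of those without it. In each library the first share was thus the lower of the pair.

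Co-detection was measured as the nuclei with both genes over the number that their separate shares would give, so that 1 is independence. Nuclei are not replicates, so this ratio is a description of each library. Of the 36 pairs of factors, 3 were at 1.5 or more in all 3 libraries, 5 were at 1/1.5 or less in all 3, and 28 were neither. With another random thinning 4 were high and 3 low, and without thinning 7 were high and 0 low. At this limit and thinning the high pairs joined factors of the same layer. The low pairs joined an upper or middle layer factor to a deep one. For the high pairs this rests on the limit. By the geometric mean of the 3 libraries, *Fezf2* with *Tle4*, of different layers, was at 1.66 and *Cux1* with *Cux2* at 1.63. *Bcl11b* with *Foxp2*, also of different layers, was at 1.62, and was the pair that the other thinning added. The same-layer pairs *Tbr1* with *Tle4* (1.5) and *Tbr1* with *Foxp2* (1.45) were not among the high ones. Since every measured gene can be paired with a factor, the shares of 6455 genes that passed the same limits are given for each.

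*Foxp2* and *Tle4*, both of layer 6, had the highest ratio. They were found together in 101, 78 and 79 nuclei where 39.8, 29.7 and 30.7 would be given by their shares, ratios of 2.54 [2.07, 3.08], 2.63 [2.08, 3.28] and 2.58 [2.04, 3.21]. *Tle4* was found in 35.2%, 30.8% and 31.6% of the nuclei with *Foxp2* and in 13%, 11.1% and 11.5% of the others. The share with *Foxp2* was 3.09%, 2.71% and 2.81% at 0 counts of *Tle4*, 8.61%, 8.35% and 8.61% at 1 count and 17.8%, 12.5% and 12.3% at 2 or more. It was higher at 2 or more than at 0 in each library. Of all genes, 0.434% were at 1.5 or more and 1.27% at 1/1.5 or less with *Foxp2*, and 0.31% and 0.201% with *Tle4*.

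*Fezf2* and *Bcl11b*, the layer 5 pair in which *Fezf2* is known to act upstream, were found together in 29, 26 and 29 nuclei where 12.3, 11.6 and 16.4 would be given, ratios of 2.35 [1.57, 3.38], 2.23 [1.46, 3.27] and 1.77 [1.18, 2.54]. Without nuclei that held at least 2 striatal markers these ran from 1.4 to 2.17, so that the lowest of the 3 was under 1.5. *Bcl11b* is also a gene of striatal neurons. The shares of all genes were 0.465% high and 0.527% low with *Fezf2*, and 0.155% and 0.17% with *Bcl11b*.

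*Cux1* and *Cux2*, the upper layer paralogs, were found together in 116, 84 and 96 nuclei where 70.3, 52.3 and 59.2 would be given, ratios of 1.65 [1.36, 1.98], 1.61 [1.28, 1.99] and 1.62 [1.31, 1.98]. The share with *Cux1* was 8.12%, 6.31% and 7.21% at 0 counts of *Cux2* and 14.6%, 10.9% and 13% at 1 count, and 15.1%, 11.2% and 10% at 2 or more. This pair lay close to the limit. It was past 1.5 in all 3 libraries in 3 of 12 settings. Of these settings, asking for at least 500 genes gave the main range, 1.61 to 1.65, again and so adds nothing. Without nuclei of the mitral or tufted list its ratios were 1.44 to 1.68. The shares of all genes were 0.0155% high and 0.093% low with *Cux1*, and 0.093% and 0.263% with *Cux2*.

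**Figure D2:**
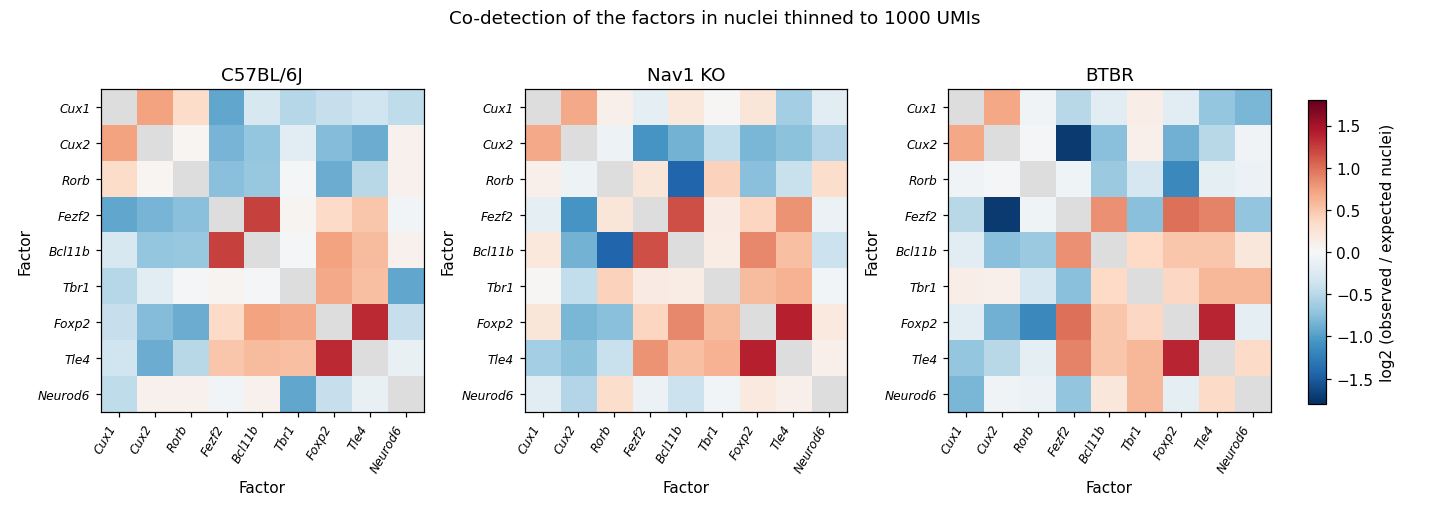
Co-detection of each pair of the 9 factors (rows and columns) in glutamatergic nuclei thinned to 1000 counts, 1 panel for each library, colored by log2 of the observed over the expected number of nuclei (red above and blue below independence, diagonal not used). Foxp2 with Tle4 was the reddest pair in each library, at 2.54, 2.63 and 2.58 times the expected number.

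Of the 5 low pairs, 3 held *Cux2*. It was found with *Fezf2* in 11, 10 and 6 nuclei, at ratios of 0.56 [0.28, 1], 0.478 [0.229, 0.879] and 0.304 [0.111, 0.661]. With *Bcl11b* the ratios were 0.619 [0.431, 0.861], 0.555 [0.359, 0.82] and 0.596 [0.428, 0.809], and with *Foxp2* 0.583 [0.351, 0.91], 0.564 [0.315, 0.93] and 0.55 [0.308, 0.907]. The upper bound reached 1 for *Fezf2* in C57BL/6J and was below 1 for the rest.

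*Rorb* held the other two. It was found with *Bcl11b* in 36, 20 and 53 nuclei, ratios of 0.621 [0.435, 0.86], 0.371 [0.227, 0.573] and 0.63 [0.472, 0.823], and with *Foxp2* in 18, 19 and 15, ratios of 0.539 [0.319, 0.851], 0.596 [0.359, 0.931] and 0.449 [0.251, 0.741]. The share with *Bcl11b* was 7.49%, 6.38% and 9.59% at 0 counts of *Rorb*, 5.18%, 2.49% and 6.78% at 1 count and 2.05%, 1.26% and 2.55% at 2 or more, lower at each step in each library. *Rorb* with *Bcl11b* was past the limit in all 3 libraries in 2 of 12 settings. Of these settings, asking for at least 500 genes gave the main range, 0.371 to 0.63, again. Without nuclei with an astrocyte marker the pair was at 0.541, 0.494 and 0.711. The shares of all genes were 0.341% high and 0.279% low with *Rorb*.

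*Cux2* and *Rorb*, which share the middle layers, were found together about as often as their shares give, at 1.02, 0.938 and 0.977. Among deep factors of different layers, *Fezf2* with *Tle4* ranged from 1.42 to 1.85, *Bcl11b* with *Foxp2* from 1.41 to 1.83 and *Bcl11b* with *Tle4* from 1.42 to 1.49, just under the limit in at least 1 library. *Fezf2* with *Foxp2* ranged from 1.27 to 1.99, *Bcl11b* with *Tbr1* from 0.972 to 1.28 and *Fezf2* with *Tbr1* from 0.595 to 1.11. *Tbr1* with *Tle4* ranged from 1.45 to 1.54, and *Tbr1* had no pair past the limit in all 3 libraries, with 0.0155% of all genes high and 0.294% low. *Cux2* with *Tle4* ranged from 0.536 to 0.71. No pair of *Neurod6* was past the limit in all 3 libraries in either direction (0.031% and 0.17% of all genes), and with *Tbr1* it ranged from 0.522 to 1.51.

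**Figure D3:**
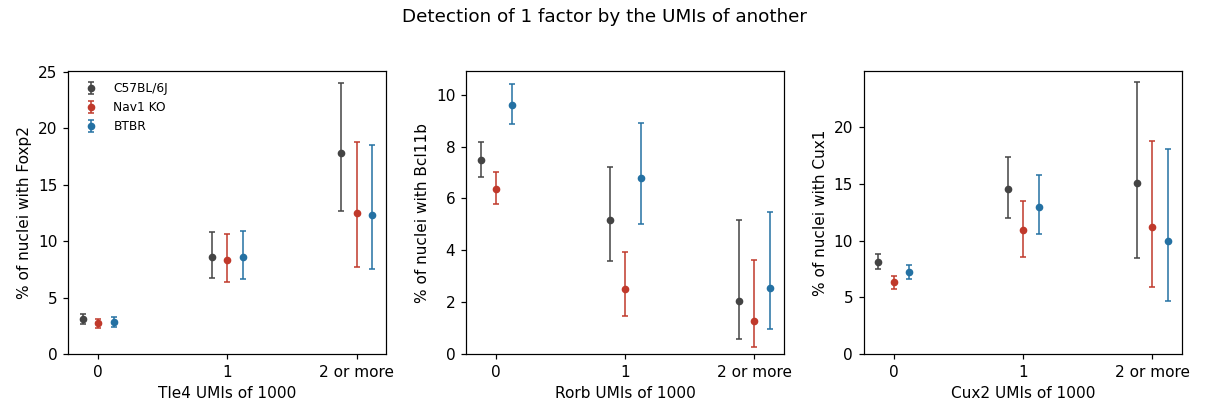
Share of glutamatergic nuclei (vertical axis, %) with Foxp2, Bcl11b or Cux1 by the counts of Tle4, Rorb or Cux2 in the same nucleus after thinning to 1000 counts, with exact 95% binomial intervals, in the C57BL/6J, Nav1 KO and BTBR libraries. The share with Foxp2 was higher and the share with Bcl11b lower at 2 or more counts of the other gene than at 0 in each library.

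Among genes other than the 9 factors, those with the highest co-detection with each factor, by the lowest ratio of the 3 libraries, were taken from the table of all genes. For *Foxp2* they were *Zfpm2* (3.08 to 3.62), a zinc finger cofactor of GATA proteins, and the collagen genes *Col12a1* (2.84 to 3.17) and *Col5a1* (2.42 to 3.17). For *Tle4* they were *Col12a1* (2.19 to 2.69), *Rai14* (2.06 to 2.27) and *Zfpm2* (2.05 to 2.37), so that 2 of the 3 were the same. *Fezf2* had *Gm19410* (2.06 to 2.32), *Col12a1* (1.96 to 3.21) and *Coro6* (1.79 to 2.04), and *Bcl11b* had the LIM-only gene *Lmo3* (1.64 to 1.86), *Sorcs2* (1.63 to 1.89) and the ephrin gene *Efnb3* (1.6 to 2.11). With *Fezf2*, the interval of *Gm19410* in *Nav1* KO, [0.94, 3.9], held 1. For *Cux2* they were the adhesion gene *Nectin3* (1.69 to 1.79), *Smoc2* (1.68 to 1.87) and *Igfn1* (1.61 to 1.72).

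Ratios were lower for *Cux1*, with *Maf* (1.41 to 1.57) and *Cep85l* (1.41 to 1.52), and for *Tbr1*, with *Lin28b* (1.52 to 2.53), *Dnajb11* (1.5 to 1.76) and *Suz12* (1.47 to 1.75). *Neurod6* had *Col6a2* (1.58 to 1.92), *Dkkl1* (1.52 to 1.85) and *Zdhhc22* (1.49 to 1.87). The intervals of *Maf*, *Cep85l*, *Dnajb11*, *Suz12*, *Col6a2* and *Dkkl1* held 1 in every library. Those of *Lin28b* and *Zdhhc22* held 1 in *Nav1* KO and BTBR. Since all were picked as the highest of the genes paired, they are not told apart from counting error there. *Rorb* had the noncoding gene *Rmst* (1.92 to 2.2), *Bcan* (1.86 to 2.08), which encodes brevican of the extracellular matrix, and *Gm13629* (1.84 to 2.38), and next to these stood the astrocyte transporter gene *Slc1a3* (1.78 to 2.31), a gene of the astrocyte list. Without nuclei that held an astrocyte marker, *Bcan* was at 0.941, 0.936 and 1.45 with *Rorb*, while *Rmst* was at 1.8, 2.24 and 2.32 and *Gm13629* at 2.59, 2.15 and 1.7.

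Of the 31 other cortical transcription factors, 22 could be paired. *Zfpm2* and the nuclear factor I gene *Nfia* were past 1.5 in all 3 libraries with both *Foxp2* and *Tle4*, with *Nfia* at 1.54 to 1.57 and 1.65 to 1.78, and *Lmo3* with *Bcl11b*. Of 3 striatal markers measured, *Rgs9* was also high with *Foxp2* (1.73 to 2.1) and *Tle4* (1.52 to 1.92). *Etv1*, an ETS factor known from layer 5, was low with *Cux2* (0.423 to 0.583), and *Tle2* was low with *Foxp2* (0.63 to 0.642). Of 4 layer 2/3 markers measured, *Calb1* was high with *Cux2* (1.55 to 1.75), and both layer 6 corticothalamic markers measured, *Col12a1* (0.639 to 0.652) and *Sulf1* (0.293 to 0.654), were low with it.

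Glutamatergic nuclei were also grouped by counts of at least 2 genes of a layer list that holds none of the 9. The lists, like the factors, were chosen with earlier results of these data known. They are therefore not an independent placement of the factors. These groups took 23%, 30.3% and 24.6% of the nuclei, which were deeper (medians of 3562, 4418 and 3729 counts) than those in no group (2252, 2848 and 2637). Of the 54 combinations of a factor and a list, 10 were at 1.5 or more times the other glutamatergic nuclei in all 3 libraries. Of all genes at a mean of 10 CPM or more, without those of the list, 0.626% did so in the layer 2/3 group, 1.49% in the middle layer, 1.16% in layer 5 extratelencephalic, 2.71% in near-projecting, 1.28% in layer 6 corticothalamic and 3.46% in layer 6b nuclei, against 1, 1, 2, 2, 3 and 1 of the 9 factors.

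Layer 2/3 nuclei (1162, 1461 and 1189) had *Cux2* at 216 CPM [203, 229], 183 [174, 193] and 172 [161, 183], or 2.13, 1.88 and 1.77 times the other nuclei. *Cux1* was at 144, 102 and 106 CPM, or 1.69, 1.53 and 1.42 times. The deep factors were low there, with *Foxp2* at 0.514, 0.291 and 0.396 times, *Tle4* at 0.445, 0.427 and 0.46 times and *Fezf2* at 0.431, 0.387 and 0.435 times. The few middle layer nuclei (22, 21 and 31) had *Rorb* at 272 CPM [185, 386], 504 [380, 656] and 572 [431, 745], or 1.89, 3.07 and 3.4 times.

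Nuclei with layer 5 extratelencephalic markers (76, 96 and 107), the cells that project out of the telencephalon, had *Fezf2* at 78.7 CPM [52.7, 113], 75.2 [55, 100] and 91.8 [67.7, 122], or 3.29, 2.89 and 3.4 times the others. *Bcl11b* was at 174, 230 and 237 CPM, or 2.22, 3.54 and 2.56 times. *Cux2* was at 0.169, 0.252 and 0.35 times. Both layer 5 factors were thus high in the same group of nuclei in each library, on 29 to 48 counts of *Fezf2*.

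Layer 6 corticothalamic nuclei (400, 435 and 316) had *Foxp2* at 160 CPM [140, 182], 131 [116, 148] and 178 [156, 203], or 4.17, 4.77 and 5.69 times the others. *Tle4* was at 465, 410 and 464 CPM, or 3.28, 3.52 and 3.69 times, and *Tbr1* at 63.7, 53.7 and 68.3 CPM, or 1.72, 1.64 and 1.81 times. *Foxp2* was at 64, 54.2 and 57 CPM in the oligodendrocyte-like nuclei, so that here, unlike in its overall share, it was above them. *Cux2* was at 0.358, 0.373 and 0.355 times, and *Neurod6* at 1.31, 1.23 and 1.5 times. Layer 6b nuclei were few (17, 48 and 22) and had *Tle4* at 639, 406 and 617 CPM, while *Foxp2* had 0, 4 and 1 counts in them, and 0 counts have an exact upper bound of 71.4 CPM.

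Near-projecting nuclei (66, 236 and 187), of layers 5 and 6, had *Tle4* at 356, 209 and 264 CPM, or 2.22, 1.57 and 1.89 times the others. *Fezf2* was at 1.68, 1.69 and 2.01 times, and at 1.84, 2.99 and 3.28 times without nuclei of the mitral or tufted list. Both C57BL/6J ratios of *Fezf2* rest on 9 counts, and their intervals, [0.766, 3.22] and [0.837, 3.52], held 1. *Foxp2* was at 106 CPM [67.3, 159], 35.6 [24.8, 49.5] and 41.5 [28, 59.3] there, on 23, 35 and 30 counts. In this group *Cux2* was at 102, 207 and 192 CPM, or 0.799, 1.75 and 1.74 times, so that the direction differed between C57BL/6J and the other libraries. Of these nuclei 5, 107 and 89 (7.58%, 45.3% and 47.6%) held counts of at least 2 mitral or tufted markers. Without them *Cux2* was at 76.1, 88.8 and 97.4 CPM, or 0.6, 0.779 and 0.885 times. *Cux1* without them was at 0.823, 0.847 and 1.78 times, and so still high in BTBR. *Foxp2* without them was at 112 CPM [69.9, 169], 42.3 [25.8, 65.3] and 48.7 [27.8, 79.1], where the C57BL/6J and BTBR intervals overlapped, and with at least 3 list genes it had 0, 11 and 1 counts in 8, 23 and 19 nuclei, so that its order among the libraries is not settled in this group. *Tle4* without the mitral or tufted nuclei was at 355, 243 and 344 CPM, or 2.22, 1.82 and 2.47 times.

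**Figure D4:**
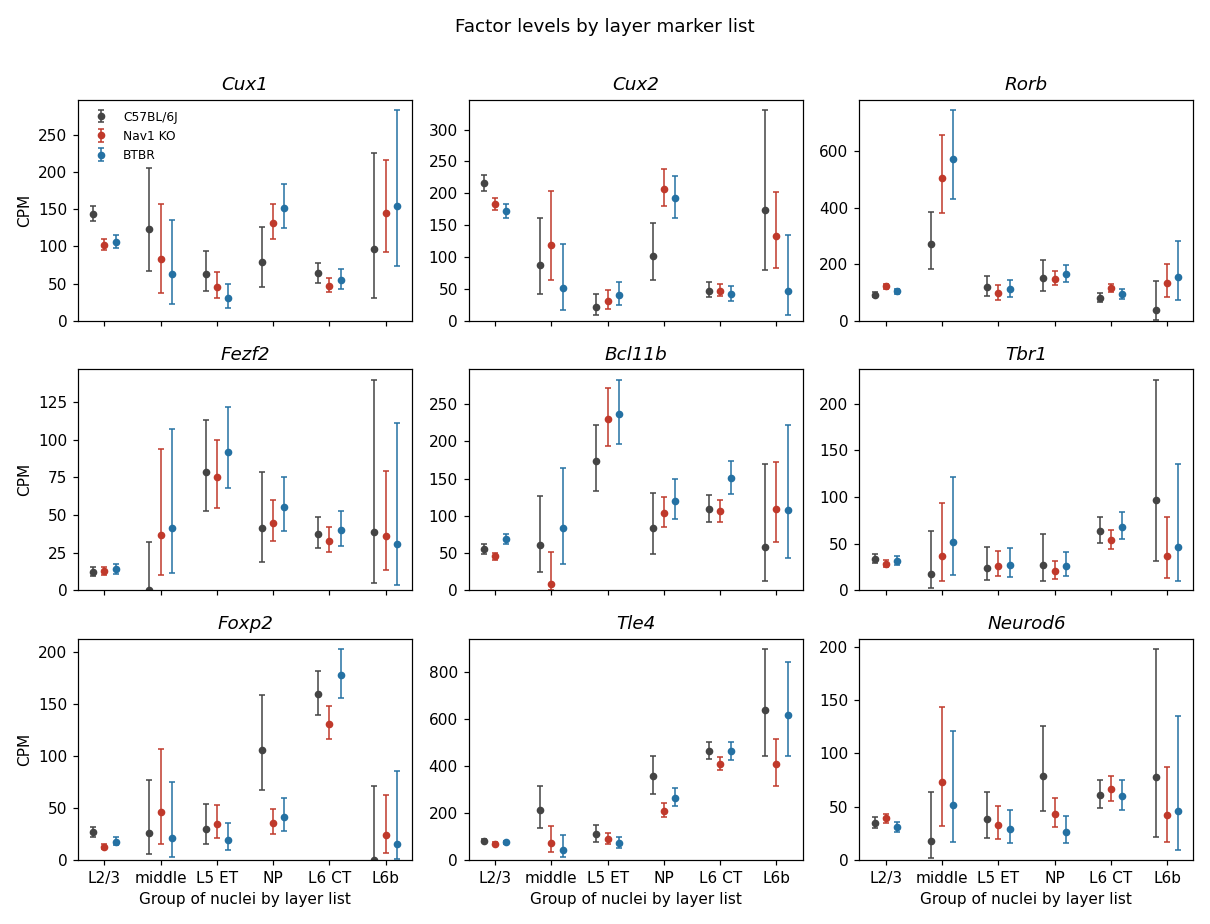
Level of each factor (vertical axis, CPM, its own scale in each panel) in glutamatergic nuclei grouped by layer marker lists (L5 ET, layer 5 extratelencephalic; NP, near-projecting; L6 CT, layer 6 corticothalamic), with exact 95% Poisson intervals, in the C57BL/6J, Nav1 KO and BTBR libraries. Cux2 was at 172 to 216 CPM in layer 2/3 nuclei, and Foxp2 at 131 to 178 CPM in layer 6 corticothalamic nuclei.

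Within a layer group the libraries could be compared with less weight on the mix of layers, though the groups need not hold the same cells in each library. Genes of the layer 2/3 list themselves differed in *Nav1* KO and BTBR, with *Calb1* at 0.659 and 0.651 times and *Wfs1* at 1.49 and 1.69 times. Depth also differed, with medians of 3732, 4755 and 3944 counts in the layer 2/3 group. In layer 2/3 nuclei 6.98% of 9424 genes were past 1.5-fold between *Nav1* KO and C57BL/6J and 14% between BTBR and C57BL/6J. There *Foxp2* was at 26.5 CPM [22.2, 31.5], 12.5 [10.2, 15.2] and 17.7 [14.4, 21.6], with ratios of 0.47 [0.36, 0.613] in *Nav1* KO and 0.668 [0.508, 0.874] in BTBR, and was the only factor past 1.5-fold, in *Nav1* KO. The ratio rests on 102 and 132 counts, and the oligodendrocyte-like nuclei had more *Foxp2*, at 64, 54.2 and 57 CPM. *Cux1* had ratios of 0.71 [0.642, 0.786] and 0.739 [0.661, 0.825], *Cux2* 0.849 [0.784, 0.918] and 0.794 [0.727, 0.868], and *Rorb* 1.31 [1.17, 1.47] and 1.13 [0.997, 1.28]. *Cux1* and *Cux2* were thus lower in *Nav1* KO and BTBR within the layer 2/3 group. Over all glutamatergic nuclei the interval of *Cux2* in *Nav1* KO held 1. The median ratio of all genes in the layer 2/3 group was 0.931 in *Nav1* KO and 1.01 in BTBR, and the ratios of the factors were not divided by it.

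In layer 6 corticothalamic nuclei 16.3% of 9602 genes were past 1.5-fold between *Nav1* KO and C57BL/6J and 20.1% between BTBR and C57BL/6J, and 0 of 9 factors in either. *Foxp2* had ratios of 0.819 [0.683, 0.983] in *Nav1* KO and 1.11 [0.923, 1.35] in BTBR, and *Tle4* 0.883 [0.796, 0.979] and 0.998 [0.892, 1.12]. In BTBR both intervals held 1, where the ratios over all glutamatergic nuclei had been below it. *Bcl11b* was 1.38 [1.11, 1.72] times the C57BL/6J level in BTBR. *Rorb* was 1.44 [1.14, 1.82] times in *Nav1* KO.

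Outside the glutamatergic nuclei the factors were not silent. Nuclei with *Gad1* or *Gad2* and no *Slc17a7* (1286, 1288 and 1602, with medians of 1922, 2253 and 2054 counts) had *Bcl11b* at 191, 122 and 135 CPM, *Foxp2* at 146, 94.8 and 102 CPM and *Tle4* at 227, 211 and 211 CPM, each above its level in glutamatergic nuclei in each library. *Tbr1*, *Neurod6*, *Fezf2*, *Rorb* and *Cux2* were lower than in glutamatergic nuclei in each library, with *Tbr1* at 7.76, 10 and 14.8 CPM and *Neurod6* at 12, 15 and 9.35 CPM.

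These *Gad* nuclei were a mixture, and *Bcl11b* and *Foxp2* are known from striatal neurons. In those with at least 2 striatal markers (610, 329 and 490) *Bcl11b* was at 250, 195 and 191 CPM, against 121, 83.4 and 102 CPM in the rest. *Foxp2* was at 205, 143 and 187 CPM against 76, 69 and 51.1 CPM, and *Tle4* at 308, 271 and 290 CPM against 129, 179 and 164 CPM. All 3 were thus higher beside striatal markers in each library. In glutamatergic nuclei with at least 2 striatal markers *Bcl11b* was at 113, 95.8 and 119 CPM, or 1.7, 1.62 and 1.34 times the others.

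Astrocyte-like nuclei (211, 560 and 387, with medians of 1338, 1832 and 1611 counts), chosen by at least 2 astrocyte markers without *Slc17a7*, *Gad1* or *Gad2*, had *Rorb* at 823, 565 and 622 CPM, above its level in glutamatergic nuclei in each library. Astrocytes are known to express this gene. In glutamatergic nuclei with a count of any astrocyte marker (8.45%, 17.2% and 15%) *Rorb* was at 232, 233 and 239 CPM, or 1.7, 1.56 and 1.52 times those without. *Cux2* was at 35.8, 24.7 and 33.2 CPM in astrocyte-like nuclei, below its level in glutamatergic nuclei. *Tle4* was at 278, 278 and 377 CPM in them, above it.

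**Figure D5:**
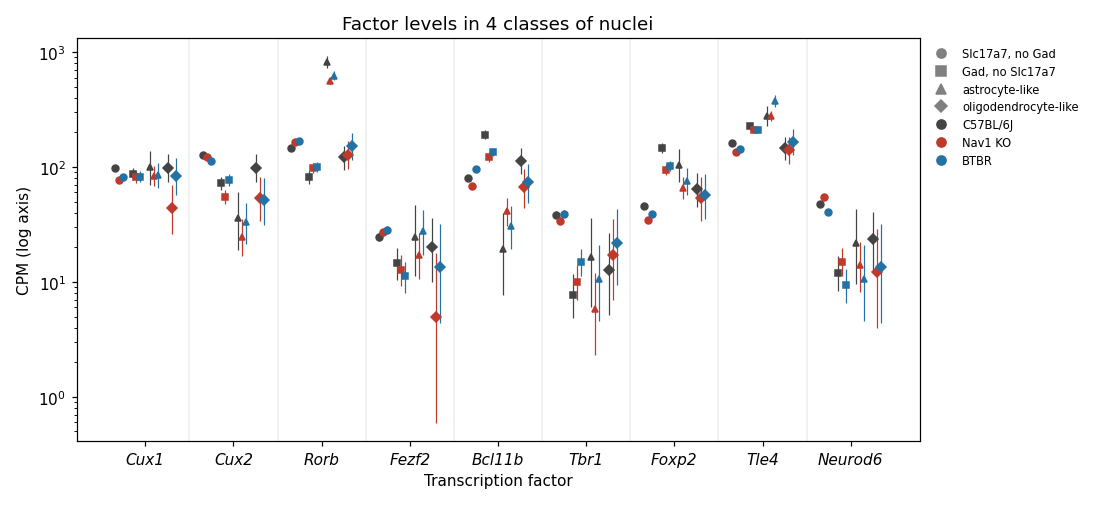
Level of each factor (vertical axis, CPM on a log axis) in glutamatergic nuclei (circles), nuclei with Gad1 or Gad2 and no Slc17a7 (squares), astrocyte-like nuclei (triangles) and oligodendrocyte-like nuclei (diamonds), colored by library, with exact 95% Poisson intervals as bars. Rorb was highest in astrocyte-like nuclei, at 823, 565 and 622 CPM, and Bcl11b was highest in the nuclei with Gad1 or Gad2.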

How the data were processed

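The authors deposited, for each library, 1 matrix of whole-number counts from a 10x 3′ library, in which a count is a UMI and barcodes had been filtered by Cell Ranger 6.0.0 with mm10, per the submitters' processing notes. Nuclei were filtered as in the report, no doublet caller was run, and an alternative left out the 10% of nuclei with the most counts. Counts of a gene were summed over nuclei and divided by all their counts to give CPM, with exact Poisson intervals, exact Clopper-Pearson intervals for shares and exact binomial-split intervals for ratios. Genes at a mean of 10 CPM or more over the 3 libraries entered ratios. Genes found in at least 2% of the thinned nuclei of every library entered co-detection (thinning seed 1). The code was tested on simulated data. Python 3.11.15, numpy 2.4.6, scipy 1.17.1, pandas 2.3.3 and matplotlib 3.10.9 were used. Genes named are the 9 factors, *Slc17a7*, *Gad1*, *Gad2* and *Nav1*, the 3 genes most co-detected with each factor, genes of the layer lists, and other cortical transcription factors past a limit. A gene that this rule names is not reported here. *Slc1a3*, *Bcan* without astrocyte markers, *Snap25*, *Rgs9*, *Etv1* and *Tle2* were added after values were seen. The factors and lists were chosen with earlier results of these data known. With 1 library per group, differences between libraries carry no estimate of the spread between mice.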

Additional observations from a re-analysis of the deposited data

Results flagged for a closer look

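Barcodes that the filters removed, which no comparison used, still held counts of the factors. In the 181, 177 and 141 removed barcodes with *Slc17a7* and no *Gad1* or *Gad2* of C57BL/6J, *Nav1* KO and BTBR, the 9 factors together were at 480 CPM [405, 564], 624 [554, 701] and 503 [432, 582], above the 9.79, 6.59 and 8.43 CPM that 3 counts would give. They were at 769, 719 and 751 CPM in the glutamatergic nuclei.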

How the results depend on the processing

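No paired analysis was possible because each group is 1 library without replicate numbers. Of 198 alternative ratios of a factor between libraries, 183 stayed within the interval of the main ratio, and all lay between 0.708 and 1.33. *Cux2* in *Nav1* KO crossed 1, from 0.957 to 1.02, in 1 of 11 settings. At the lower limit tried, 2 factors, *Cux1* and *Foxp2*, were past it in *Nav1* KO against 0 at 1.5-fold. Their ratios of 0.777 and 0.749 lay at percentiles 14.3 and 10.2 of the ratios of all genes. The share of all genes past the lower limit is not given here, so this count does not set the factors apart from other genes. The number of low pairs, 5 in the report, was 3 with no limit on *Gad1* and *Gad2*, 2 under 5% mitochondrial counts, 3 with another thinning seed, 0 without thinning and 0 at a limit of 2. The number of high pairs, 3 in the report, was 7 without thinning, 9 at the lower limit and 1 at a limit of 2. No pair changed direction among 96 values, which are geometric means of the 3 libraries for the high and low pairs of the report only. Those pairs were picked for lying far from 1, and the settings reuse much the same nuclei. The other pairs were not checked for direction. *Foxp2* with *Tle4* stayed past the limit in all 12 settings and *Fezf2* with *Bcl11b* in 11. *Cux2* with *Fezf2* and with *Foxp2* did so in 10, *Rorb* with *Foxp2* in 8 and *Cux2* with *Bcl11b* in 6. Asking for at least 500 genes gave the main range of every high and low pair again. Each of these counts thus includes a setting that changed nothing. The genes co-detected with a factor, summed over the factors, numbered 114, and 25 when found in at least 5% of the nuclei. The causes were not tested. Leaving out nuclei with an astrocyte marker or of the mitral or tufted list in the layer groups, and asking for 3 oligodendrocyte markers, were chosen after seeing the data, and the last put 5 in place of 4 factors at a higher share than in oligodendrocyte-like nuclei in all 3 libraries. Low pairs rest on as few as 6 nuclei, and the depth of 1000 counts limits them.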
